A study of Mus musculus with 58 samples.

Results

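The 77 genes described here encode proteins of the cytosolic ribosome. They were taken by mouse gene symbol: Rpl or Rps followed by a number, with at most 1 of the letters a, x, y or l after it, together with Rplp0, Rplp1, Rplp2 and Rpsa. Predicted genes and pseudogenes were left out, and a mean normalised count of at least 10 over the libraries was required. Of the 18088 genes in the table, 79 matched the symbols. Rps4l was set aside because GENCODE annotates it as a transcribed processed pseudogene, and Rpl3l because its mean of 7.55 lay just outside the limit. Rps27, the lowest gene inside it, had a mean of 77.6, so all 77 also passed the filter on low values. The set holds 31 genes of the small subunit and 46 of the large subunit.

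RNA had been sequenced from prefrontal cortex of C57BL/6J mice at postnatal day 25, after 3 weeks of treatment through maternal milk, from postnatal day 3 to 24. Pups were heterozygous (HT) or wild-type (WT) for Kmt5b, a histone H4 lysine methyltransferase gene. The groups were HT fluoxetine, HT lithium, HT vehicle, WT fluoxetine, WT lithium and WT vehicle, with 10 libraries each except 8 for WT lithium, and each was split evenly between females and males. Fluoxetine is a serotonin reuptake inhibitor and lithium a mood stabiliser. The labels do not give the litter, although littermates share a treatment that comes with the milk, nor which part of Kmt5b the HT allele changes. Kmt5b itself averaged 1734 ± 98.3 normalised counts in HT libraries (SD, n = 30) and 1654 ± 137 in WT libraries (SD, n = 28), so its gene count was not lower in HT libraries (log2 difference 0.07, limma adjusted p = 0.186).

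Each ribosomal protein is made in step with the others because the finished ribosome holds 1 copy of nearly every one, the P-stalk proteins being the known exception. In vertebrates most of their mRNAs begin with a C followed by a run of pyrimidines, the terminal oligopyrimidine (TOP) motif, through which mTOR signalling controls their translation. In neurons these mRNAs are also found in axons and dendrites, and ribosomes are costly to build, so their production is coupled to growth.

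The start sites are shown first because the TOP motif is what these genes are known to share and the selection by symbol did not use it. The RefSeq promoter table (build GRCm38.p6) had an entry for 57 of the 77 genes. Each line gives 15 bases on either side of the annotated start of transcription, 5′ to 3′ on the gene's own strand, and capitals mark the longest run of C and T within those 30 bases. Of 28 named genes with a single entry, 14 had a run of at least 8 bases in this stretch and 14 a shorter one. The lines show 11 of the first kind, chosen to display such runs, and then 5 of the second (Rps28, Rpl6, Rps4x, Rpl41 and Rpl24), so they are not a sample of the 77 genes.
Rps10 (chr17:27635230-27635259, minus strand): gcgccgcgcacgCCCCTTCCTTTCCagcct
Rpl28 (chr7:4792950-4792979, plus strand): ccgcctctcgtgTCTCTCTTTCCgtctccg
Rpl7a (chr2:26910792-26910821, plus strand): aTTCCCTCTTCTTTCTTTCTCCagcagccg
Rplp2 (chr7:141447636-141447665, plus strand): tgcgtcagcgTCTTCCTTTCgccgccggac
Rpl38 (chr11:114668565-114668594, plus strand): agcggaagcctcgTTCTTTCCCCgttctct
Rpl18 (chr7:45718056-45718085, plus strand): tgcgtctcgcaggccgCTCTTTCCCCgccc
Rps26 (chr10:128626492-128626521, minus strand): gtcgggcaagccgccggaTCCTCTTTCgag
Rpl13 (chr8:123102335-123102364, plus strand): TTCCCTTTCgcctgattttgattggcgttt
Rps6 (chr4:86857353-86857382, minus strand): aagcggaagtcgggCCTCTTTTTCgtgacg
Rps18 (chr17:33955651-33955680, minus strand): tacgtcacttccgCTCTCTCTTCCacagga
Rpl15 (chr14:18270972-18271001, minus strand): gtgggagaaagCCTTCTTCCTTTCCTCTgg
Rps28 (chr17:33824548-33824577, minus strand): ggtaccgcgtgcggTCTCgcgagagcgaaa
Rpl6 (chr5:121204486-121204515, plus strand): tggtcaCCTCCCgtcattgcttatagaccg
Rps4x (chrX:102189377-102189406, minus strand): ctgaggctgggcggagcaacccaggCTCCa
Rpl41 (chr10:128549154-128549183, minus strand): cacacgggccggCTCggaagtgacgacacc
Rpl24 (chr16:55966260-55966289, plus strand): agaaagCTgttgctaggaaacagactgggc
The run was 21 bases long in Rpl7a, 13 in Rps10, 4 in Rps28 and 2 in Rpl24, and in Rps10, Rpl28 and Rpl38, among others, it spanned the annotated start. Within 50 bases on either side of the start, a run of at least 8 C or T on the transcribed strand was present in 49 of the 57 genes (86.0%), against 37.4% of the 11405 protein-coding genes that were tested and had an entry. The string CTTTCC, read on the transcribed strand in the same stretch and able to lie within such a run, was present in 31.6% of the 57 genes and in 5.15% of the protein-coding genes. The string CCGGAAG, a core of sites for ETS-family factors, was searched on both strands of the 300-base window and was found in 42.1% and 18.0%. These are matches of letters, and the absence of a match says only that the letters are not in the window. A run found this way need not begin at the start of the mRNA, so it is not by itself a TOP motif. In Rpl13 the marked run lay wholly before the annotated start, and in Rpl18 and Rps26 it began after it, at bases 2 and 4.

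Levels per length differed 50.3-fold between the highest and the lowest of the 77 genes. Per kilobase of the principal transcript, Rplp1, an acidic protein of the P-stalk that recruits translation factors, had a mean of 10971 normalised counts, Rps15 8462, Rpl41 7984, Rpl19 7796 and Rps29 7263. At the other end stood Rpl12 with 218, Rps27 with 225, Rps27l, a paralog of Rps27, with 305, and then Rps20 and Rpl18, the second with 537. Rps20 and Rpl18 averaged 1948 and 1605 normalised counts, against a median of 2560 for the 77 genes. Their principal transcripts were long, at 3706 and 2989 bases, so their low rank depends on the transcript chosen for the length. The median of the 77 genes was 3058 per kilobase, against 216 for 14644 protein-coding genes tested. Their transcripts were short, with a median length of 878 bases against 3080.5.

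Many of these genes have near-identical copies elsewhere in the genome, and the deposited values gave counts to these copies too. A copy of at least 95% identity over at least 80% of the shorter transcript was in the table for 31 of the 77 genes. In 14 genes the copy held at least 20% of the gene's own count, and all 14 lay between rank 50 and rank 77 in level per kilobase. With the copy's count added, their ranks ran from 18 to 72. Rps27 averaged 77.6 normalised counts against 1443 for its copy Rps27rt, and it held 2.04% to 23.4% of their sum over the 58 libraries. Rpl12 averaged 271 against 3309 for Gm10275, Rpl5 1432 against 3975 for Gm15500, and Rpl10 991 against 2907 for Rpl10-ps3. Whether counts on a copy were its own transcripts or reads of the gene was not tested, so values of these 14 genes are uncertain. The low rank of Rps27 and Rpl12 is a rank of the reads assigned to them.

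**Figure D1:**
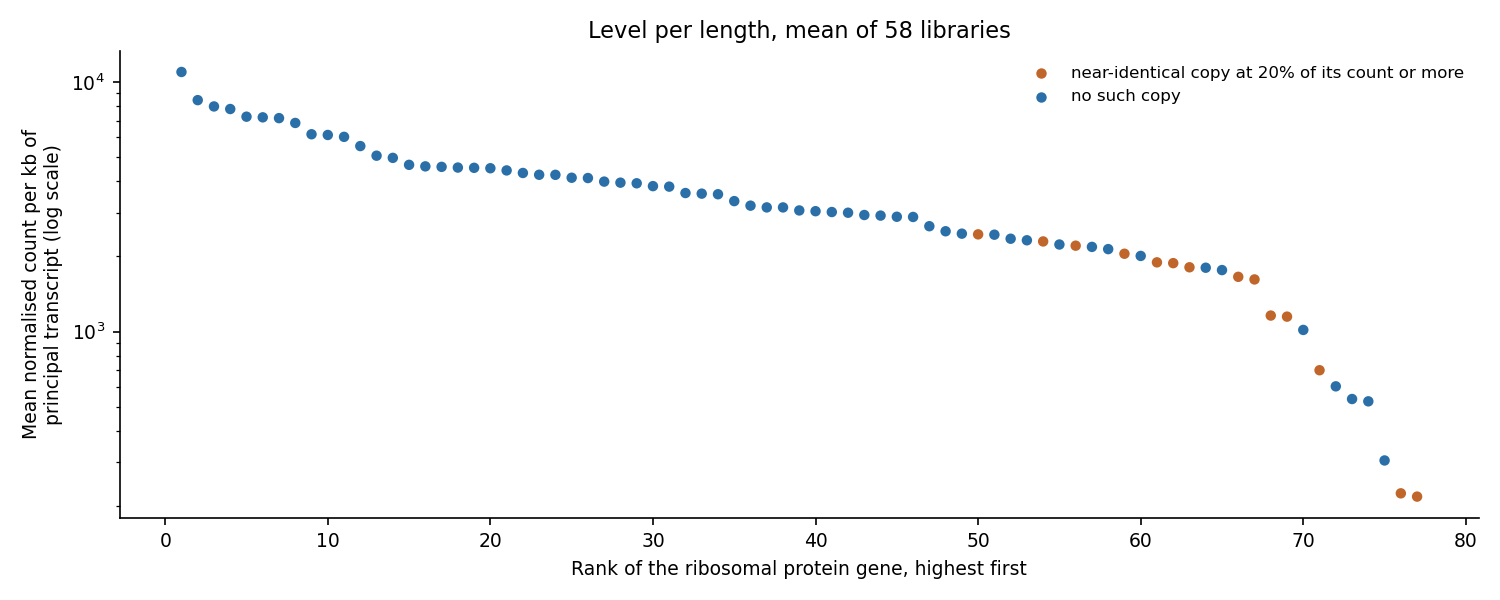
Each point is 1 of the 77 genes, ordered from high to low by mean normalised count per kilobase of principal transcript over 58 libraries (log scale). Orange points are the 14 genes with a near-identical copy at 20% of their count or more, and all lie between rank 50 and rank 77.

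The 77 genes varied together from library to library. After group means were removed, the first principal component took 60.1% of their variance and all 77 had the same sign on it, against 32.5% for 78 mitochondrial ribosomal protein genes, 56.6% for 80 nuclear oxidative phosphorylation genes and 41.6% for 37 proteasome genes. The spread of a single gene between libraries of a group was small, with a median residual SD of 0.11 on the log2 scale against 0.13 over all genes tested. Rpl3, which lies near the peptidyl transferase centre, had the smallest SD (0.06) and Rps27 the largest (0.62). As a share of all normalised counts the 77 genes took 0.687% to 1.06% of a library.

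This common level also followed a measure taken from other genes. In each library the log2 deviation of the genes outside the set was regressed on log2 exon length, and the slope, per doubling of length, is called the exon length slope. A negative slope means that short transcripts were relatively high in that library. In the 10 libraries with the lowest slopes (-0.077 to -0.0371) the mean log2 level of the 77 genes, relative to the mean of all 58 libraries, was between 0.07 and 0.38. In the 10 libraries with the highest slopes (0.0293 to 0.0546) it was between -0.23 and -0.07, so no library of either set overlapped the other. The slope averaged -0.003 in HT fluoxetine, 0.011 in HT lithium, -0.020 in HT vehicle, 0.021 in WT fluoxetine, 0.006 in WT lithium and -0.013 in WT vehicle libraries. Each drug comparison is therefore given also with the slope as a covariate.

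**Figure D2:**
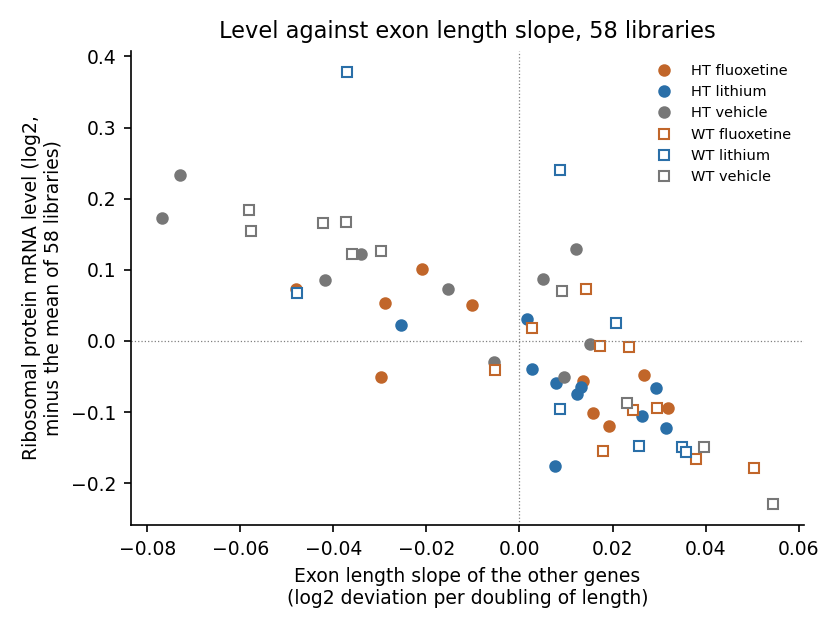
Each point is 1 of 58 libraries, with the exon length slope of the other genes on the horizontal axis (log2 deviation per doubling of length) and the mean log2 level of the 77 ribosomal protein genes on the vertical axis (minus the mean of all libraries). Levels were highest at the low slopes, between 0.07 and 0.38 in the 10 lowest, and below 0 in the 10 highest.

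Of the other cell types checked, the 4 olfactory bulb markers were detected in every group, none at 0, and their summed level varied widely within groups: 157 to 10513 in HT fluoxetine, 137 to 5383 in HT lithium, 1218 to 6740 in HT vehicle, 95.8 to 9976 in WT fluoxetine, 877 to 5776 in WT lithium and 147 to 4807 in WT vehicle libraries. None of the 6 excitatory neuron markers passed in a drug comparison averaged over the sexes; calls in other marker lists are given beside each comparison. Recovered reads ranged from 23.5 to 38.6 M per library, with a median of 27.6 M. In bulk tissue, fewer cells of a type and less RNA per cell cannot be told apart. Neither the labels nor the table gave a sequencing batch or date.

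Lithium in HT mice gave the highest count of the 4 drug comparisons in the fit of 12 groups, but not once the exon length slope was added (9 genes lower, against 10 with fluoxetine in HT mice). Of the 77 genes, 42 fell in HT lithium against HT vehicle cortex and 0 rose, where 6.61% of all 16669 genes tested fell and 7.46% rose. A gene was called at a limma adjusted p under 0.05, with Benjamini-Hochberg adjustment over all genes tested. The changes were small: the median log2 difference was -0.15, against 0.00 over all genes, and 74 of the 77 values were negative. Genes of both subunits fell, 18 of 31 small subunit and 24 of 46 large subunit genes.

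Rps26, which lies at the mRNA exit channel of the small subunit, had the smallest p. Its normalised count was 1808, 1965 and 2108 (lowest, median and highest of 10) in HT lithium, against 2032, 2311 and 2577 in HT vehicle libraries. Most of the lithium range lay below the vehicle range, with an overlap from 2032 to 2108, and the fall was 0.26 on the log2 scale (SE 0.05, limma adjusted p = 0.000312). Rps28, a protein of the head of the small subunit, had 740, 789 and 931 in HT lithium, against 835, 1046 and 1198 in HT vehicle libraries. It fell by 0.37 on the log2 scale (SE 0.08, limma adjusted p = 0.00135), with overlapping ranges, and held a median of 75.4% of the sum of its count and that of its copy Gm10443. Gm10443 fell as well, by 0.45 (limma adjusted p = 0.0174).

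Rpl13, a large subunit protein, had 3335, 4096 and 4518 in HT lithium, against 4228, 4682 and 5118 in HT vehicle libraries. The ranges overlapped, and it fell by 0.22 (SE 0.05, limma adjusted p = 0.00132). Rpl7a, Rpl6, Rpl32 and Rpl18, all of the large subunit, fell by 0.15, 0.17, 0.24 and 0.23. In each of them the lithium and vehicle ranges overlapped at the edges.

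Among genes with a named role, Rps6, whose protein is phosphorylated downstream of mTOR, had 3092, 3382 and 3472 in HT lithium, against 3418, 3726 and 4258 in HT vehicle libraries, and fell by 0.15 (limma adjusted p = 0.0312). Of the P-stalk genes, Rplp2 fell by 0.28 (limma adjusted p = 0.00406), while Rplp0 (log2 difference -0.10, adjusted p = 0.10) and Rplp1 (-0.14, adjusted p = 0.153) did not pass. Rpl5 and Rpl11, which together hold the Mdm2 ubiquitin ligase when ribosome assembly fails, differed: Rpl11 fell by 0.12 (limma adjusted p = 0.024), and Rpl5, whose copy had the higher count, stood at 0.01 (adjusted p = 0.968). Rps19, mutated in the human disorder Diamond-Blackfan anaemia, fell by 0.21 (limma adjusted p = 0.0221). Of the 4 X-linked genes, Rps4x and Rpl36a fell, by 0.17 and 0.21, and Rpl10 and Rpl39 did not pass (-0.02 and -0.17). Rpsa, also known as the laminin receptor, and Rps27a, made as a fusion with ubiquitin, lay just outside the limit (log2 difference -0.12, limma adjusted p = 0.052, and -0.16, limma adjusted p = 0.0593).

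The direction of the HT lithium result was the same in both sexes, with a median log2 difference of -0.14 in females and -0.16 in males. Within females alone 14 of the 77 genes were lower (3.14% of all genes). Within males 0 passed (0.444% of all genes lower), with 40 of the 77 at an unadjusted p under 0.05. With the exon length slope in the fit 0 passed in either sex, and the medians were -0.04 in females and -0.11 in males. No gene's lithium effect differed between the sexes in HT mice at an adjusted p under 0.05 (1 of 77 at an unadjusted p under 0.05). With the exon length slope added and the sexes averaged, 9 of the 77 genes were lower (among them Rps26, Rpl13, Rps28, Rpl6, Rpl7a, Rpl32, Rpl18 and Rplp2), the median was -0.07, and 5.15% of all genes were lower. On whole reads recovered for 54 libraries, edgeR's quasi-likelihood test called 13 lower (2.6% of all genes) and DESeq2 17 (3.31% of the 16022 genes it tested). On the same 54 libraries limma called 13. Over all 16669 genes, both directions together, it called 1061 there, against 2345 on all 58 libraries. With the olfactory bulb marker level in the fit 45 of the 77 genes were lower, where 9.53% of all genes were lower. Of the 13 mitochondrially encoded genes 5 were higher in HT lithium. Among cell markers 1 of 6 astrocyte markers was higher (Gjb6, 0.50; summed level 31360 to 38650 in HT lithium, against 32519 to 40609 in HT vehicle libraries), as was 1 of 6 inhibitory neuron markers (Pvalb, 0.49; 18602 to 24764, against 19998 to 25081). Of 6 endothelial markers 1 was higher (Ly6c1, 0.29) and 1 lower (Cldn5, -0.37; 6468 to 7596, against 5980 to 7584), and no marker was at 0 throughout. The part of these in the result was not tested.

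**Figure D3:**
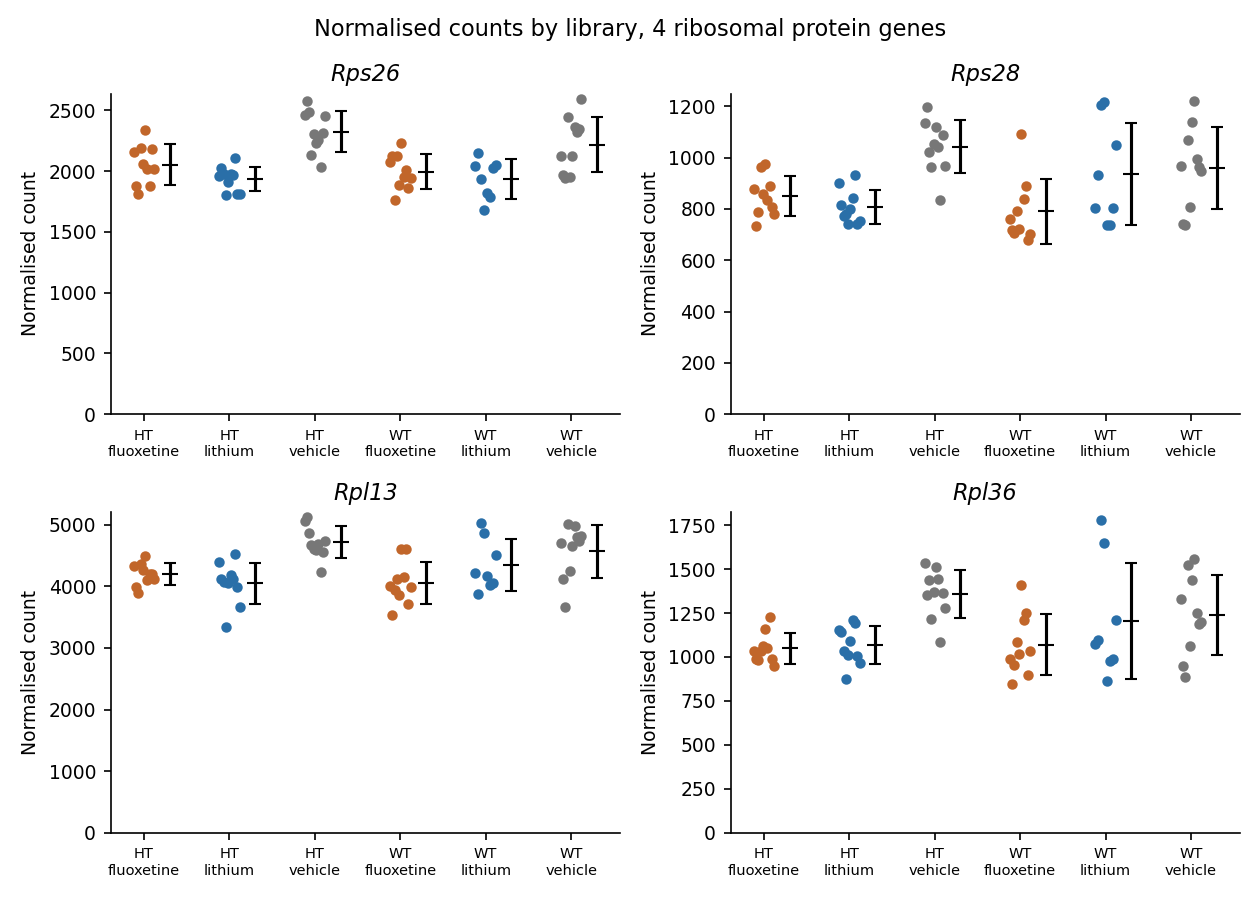
Normalised counts of Rps26, Rps28, Rpl13 and Rpl36 in each of the 58 libraries by genotype and treatment, with mean and SD beside the points. Rps26 averaged 1937 in HT lithium and 2326 in HT vehicle libraries, and every drug group overlaps its vehicle group.

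With fluoxetine in HT mice 16 of the 77 genes fell and 0 rose, where 5.96% of all genes tested fell and 6.84% rose. Among them were Rpl36, Rplp2, Rps10, Rpl7a, Rpl28, Rps28, Rps26, Rps29, Rpl13, Rpl8, Rpl19, Rpl38, Rpl32, Rpl23a and Rps15. The median log2 difference was -0.09 and 68 of 77 values were negative. By subunit, 6 of 31 small and 10 of 46 large subunit genes fell.

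Rpl36, a large subunit protein, had 951, 1034 and 1229 normalised counts in HT fluoxetine, against 1084, 1366 and 1535 in HT vehicle libraries. Most fluoxetine libraries lay below most vehicle libraries, with an overlap in the middle, and it fell by 0.37 (SE 0.09, limma adjusted p = 0.00449). Rplp2 had 1981, 2145 and 2448 in HT fluoxetine, against 2124, 2706 and 2931 in HT vehicle libraries, and fell by 0.28 (SE 0.07, limma adjusted p = 0.00599). Rps10, a protein of the head of the small subunit, had 1843, 2016 and 2551 in HT fluoxetine, against 2203, 2491 and 2656 in HT vehicle libraries, and fell by 0.24 (SE 0.06, limma adjusted p = 0.00846).

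Rps29, also of the small subunit head, had 2412, 2598 and 2947 in HT fluoxetine, against 2621, 3276 and 3902 in HT vehicle libraries, and fell by 0.30 (SE 0.08, limma adjusted p = 0.012). Rpl28, Rps28, Rps26 and Rpl7a fell by 0.19, 0.29, 0.18 and 0.13. Rps6 was at 0.01 (limma adjusted p = 0.955) and Rpl11 at -0.05 (adjusted p = 0.373), and neither passed. With the exon length slope added, 10 of the 77 genes were lower and the median was -0.06, where 7.56% of all genes were lower.

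Other cell markers moved in this comparison. Of 6 oligodendrocyte markers 3 were higher in HT fluoxetine (summed level 50138 to 123328) than in HT vehicle libraries (39073 to 91824), and so were 3 of 6 microglia markers (8250 to 10904, against 7958 to 9597), 3 of 6 endothelial markers (6492 to 8750, against 5980 to 7584) and 2 of 6 astrocyte markers (34181 to 43486, against 32519 to 40609), with none of the markers at 0. In the other direction 1 of 6 inhibitory neuron markers was lower, Slc32a1 (-0.25; 18223 to 26773, against 19998 to 25081). Of the 13 mitochondrially encoded genes 9 were higher. The part of these in the result was not tested. The count of 16 was 1 with edgeR (1.97% of all genes lower) and 3 with DESeq2 (2.64%) on 54 libraries, where limma called 2. It was 9 without any 1 of HT fluoxetine female 2, HT fluoxetine female 3, HT fluoxetine male 5 and HT vehicle male 5, and 10 without HT vehicle female 1 or female 2.

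With fluoxetine in WT mice 7 of the 77 genes fell and 0 rose, where 3.41% of all genes fell and 3.98% rose. The 7 included Rpl13, Rps28, Rps4x, Rps10, Rps20 and Rpl38. The median log2 difference was -0.12, with 75 of 77 values negative, and 5 of 31 small and 2 of 46 large subunit genes fell. Rpl13 had 3537, 4001 and 4610 in WT fluoxetine, against 3662, 4721 and 5010 in WT vehicle libraries, and fell by 0.17 (SE 0.05, limma adjusted p = 0.0207). Rps28 had 680, 740 and 1091 in WT fluoxetine, against 738, 966 and 1222 in WT vehicle libraries, and fell by 0.28 (SE 0.08, limma adjusted p = 0.0242). Rps20, a small subunit head protein, had 1520, 1783 and 2064 in WT fluoxetine, against 1607, 2187 and 2388 in WT vehicle libraries, and fell by 0.22 (SE 0.07, limma adjusted p = 0.0334). The groups overlapped throughout. Of 6 astrocyte markers 1 was lower in WT fluoxetine (Aldh1l1, -0.15; summed level 30447 to 39207, against 32484 to 39410 in WT vehicle libraries), as was 1 of 6 endothelial markers (Slco1a4, -0.18; 6727 to 7585, against 6012 to 9019); their part in the result was not tested.

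The count of 7 changed with single libraries. Of the 77 genes 0 were lower once the exon length slope was added (3 at an unadjusted p under 0.05), where 0.942% of all genes were lower and the median of the 77 was -0.02. The count was 5 with edgeR (3.17% of all genes lower) and 11 with DESeq2 (3.73% of the 16345 genes it tested) on 54 libraries. It was 0 without WT vehicle female 1 or female 4, 1 without WT fluoxetine male 4, 2 without WT fluoxetine male 5 or WT vehicle male 5, 3 without WT fluoxetine female 2 or WT vehicle male 2, and 4 without WT fluoxetine female 3. It was 17 without WT vehicle female 2 and 23 without WT vehicle female 3. Of the 7 genes, 6 (85.7%) were among the 42 that fell with lithium in HT mice, a comparison of other libraries in which 54.5% of the 77 fell. They made up 14.3% of those 42. Both sets of calls came from the same fit, with the spread of each gene estimated over all 58 libraries, so they are not independent.

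**Figure D4:**
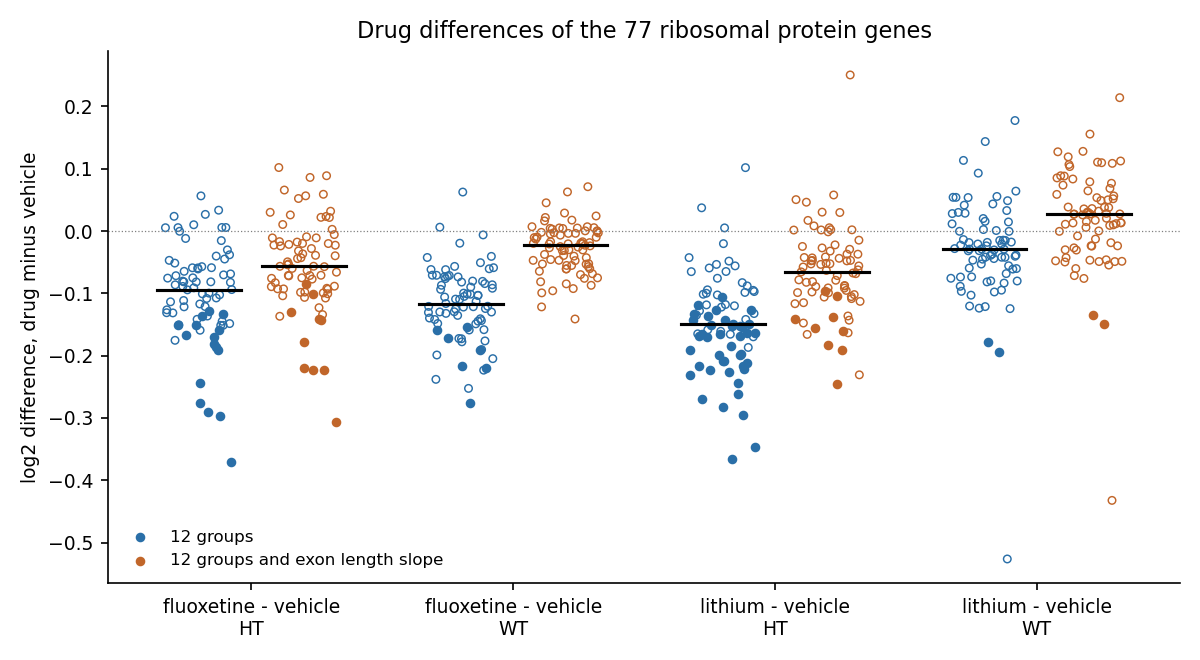
Each point is 1 of the 77 genes, with its log2 difference between drug and vehicle in 4 comparisons, fitted with 12 groups (blue) or with the exon length slope added (orange). Filled points passed at an adjusted p under 0.05 and bars are medians. In HT lithium the median was -0.15 without the slope and -0.07 with it.

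With lithium in WT mice 2 of the 77 genes fell and 0 rose when both sexes were averaged, where 1.39% of all genes fell and 1.95% rose. Rps26 had 1679, 1981 and 2149 in WT lithium, against 1945, 2225 and 2593 in WT vehicle libraries, and fell by 0.19 (SE 0.05, limma adjusted p = 0.0253). Rpl17 had 3080, 3498 and 4230 in WT lithium, against 3256, 4222 and 4747 in WT vehicle libraries, and fell by 0.18 (SE 0.05, limma adjusted p = 0.0288). The groups overlapped in both. The median log2 difference was -0.03 and 22 of 77 values were positive. With the exon length slope added the count was again 2 (1.72% of all genes lower) and the median 0.03. The count was 0 with only the groups compared in the fit, and 0 without WT lithium females 3 and 4, where the median was -0.09. Of 6 astrocyte markers 1 was higher in WT lithium (Gjb6, 0.38; summed level 33765 to 43608, against 32484 to 39410 in WT vehicle libraries), and its part in the result was not tested. It was also 0 without WT lithium female 4 or WT vehicle female 4, and 1 without any 1 of WT lithium males 2, 3 and 4, WT vehicle female 1, WT vehicle male 4 and WT vehicle male 5.

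This average covered opposite differences in the sexes, a split that was made after the values were seen. In WT lithium females 13 of the 77 genes were higher than in vehicle females (1.17% of all genes) and the median was 0.22, with 76 values positive. In WT lithium males 32 were lower than in vehicle males (1.54% of all genes) and the median was -0.27, with 75 negative. The difference between the lithium effects was tested itself: 58 of the 77 genes passed with a positive difference and 0 with a negative one, where 1.88% of all genes passed in that direction and 1.03% in the other, and its median was 0.47.

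Rpl35a, a large subunit protein, had normalised counts of 2049, 1917, 2458 and 2080 in WT lithium females, against 2111, 1582, 1461, 2087 and 1704 in WT vehicle females. In males it had 1557, 1569, 1465 and 1542 with lithium, against 2259, 2220, 1903, 2070 and 2053 with vehicle. All lithium males lay below all vehicle males, while the females overlapped, and the lithium effects differed by 0.71 on the log2 scale (SE 0.12, limma adjusted p = 0.000745). Rpl41, whose protein is the shortest of the ribosome, had 4476, 5524, 7400 and 6325 in WT lithium females, against 4883, 3680, 3882, 5022 and 4060 in WT vehicle females. In males it had 4087, 3895, 3935 and 4446 with lithium, against 5838, 5644, 4603, 4807 and 5088 with vehicle, and the effects differed by 0.79 (SE 0.14, limma adjusted p = 0.000812). Rps18 differed by 0.54 (SE 0.09, limma adjusted p = 0.000745): WT lithium females had 2582, 2777, 3647 and 3454, against 2682, 2329, 2263, 2579 and 2469 in WT vehicle females, and WT lithium males had 2253, 2311, 2310 and 2460, against 2804, 2803, 2618, 2576 and 2766 in WT vehicle males.

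The exon length slope moved with this pattern: it averaged -0.0139 in WT lithium females and 0.00783 in WT vehicle females, and 0.0263 in WT lithium males and -0.0348 in WT vehicle males. With it in the fit 0 of the 77 genes passed, and 0% of all genes (49 at an unadjusted p under 0.05; smallest adjusted p 0.0892) and the median was 0.27, while 12 in females (1.21% of all genes higher) and 1 in males (0.072% lower) passed. With only the groups compared in the fit 0 passed. On 54 libraries edgeR called 60 (2.14% of all genes) and DESeq2 65 (4.75% of the 11821 genes it tested). Without WT lithium females 3 and 4, the deepest libraries and those where the 77 genes stood highest (0.38 and 0.24), 7 passed, and the count was 21 without WT lithium female 3, 30 without WT vehicle female 3 and 34 without WT vehicle female 2. The count of 13 in females ran from 0, without WT lithium female 3 or 4, to 43, without WT lithium female 1, and each of the other libraries moved it too: it was 28 without WT lithium female 2 or WT vehicle female 1, 24 without WT vehicle female 4, 6 without WT vehicle female 2 or 5, and 3 without WT vehicle female 3. The count of 32 in males was 20 without WT lithium male 1, 17 without male 2 or male 3, and 16 without WT vehicle male 5. The other tests of a sex difference in a drug effect, fluoxetine in HT, fluoxetine in WT and lithium in HT mice, gave 0 of 77 each (0, 15 and 1 at an unadjusted p under 0.05).

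**Figure D5:**
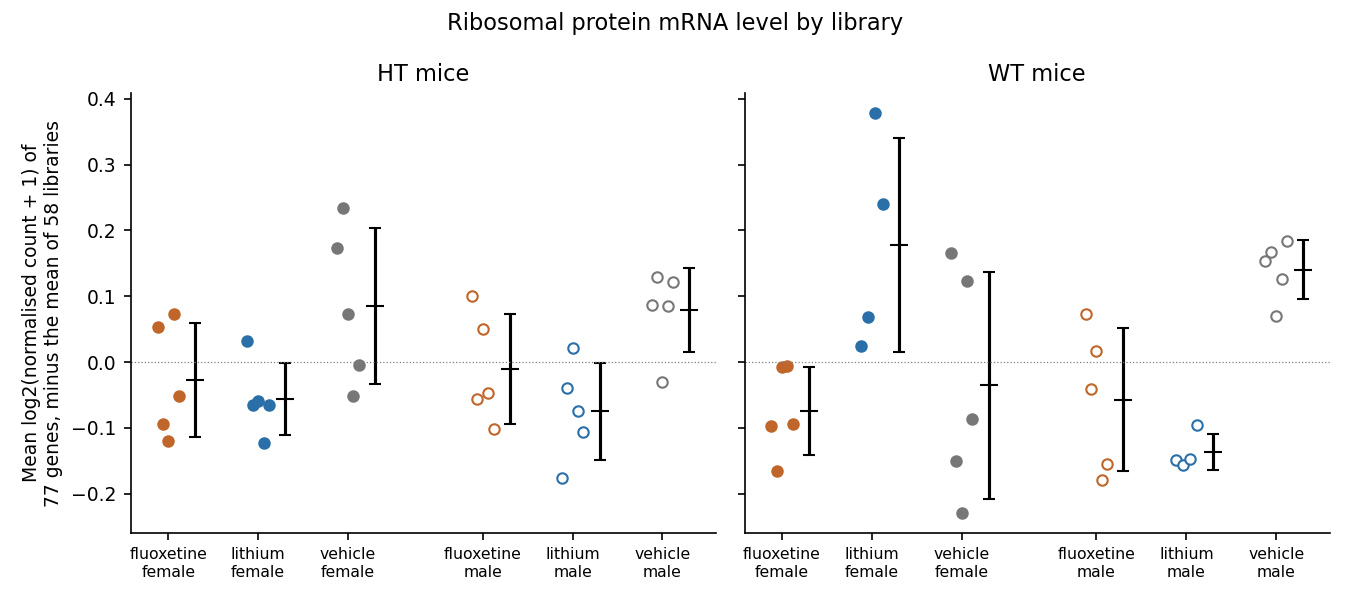
Each point is 1 library, plotted as the mean log2(normalised count + 1) of the 77 genes minus the mean of all 58 libraries, with mean and SD beside each group. WT lithium females lie between 0.02 and 0.38 and WT lithium males between -0.16 and -0.10, against -0.23 to 0.17 in WT vehicle females and 0.07 to 0.18 in WT vehicle males.

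No gene of the 77 passed between genotypes when the sexes were averaged. HT against WT mice gave 0 of 77 under vehicle (0.048% of all genes passed; 1 gene at an unadjusted p under 0.05), under fluoxetine (0.612%; 6 genes), under lithium (0.06%; 23 genes) and averaged over treatments (0.468%; 0 genes). The limma medians were 0.04, 0.04, -0.09 and 0.00, and edgeR and DESeq2 called 0 in each. Closest by limma's p were Rpl18 under vehicle (0.11, adjusted p = 0.401), Rpl27 under lithium (-0.27, adjusted p = 0.218) and Rps27l, induced by p53, averaged over treatments (-0.10, adjusted p = 0.552). Without WT lithium female 1, 6 genes passed under lithium. In a split by sex made after the values were seen, 15 of the 77 were lower in HT than in WT lithium females (0.546% of all genes), with a median of -0.24. That count was 1 with the exon length slope in the fit (0.006%) and 0 without WT lithium females 3 and 4 (0%). In lithium males 0 passed (0.024% of all genes), with a median of 0.05. The difference between the sexes itself passed in 0 of 77 (0% of all genes).

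The larger count with lithium in HT than in WT mice was not matched by a tested difference. The limma interaction of lithium with genotype called 0 of 77 genes (0% of all genes; 28 of the 77 at an unadjusted p under 0.05), with a median of -0.13 and Rpl18 closest (-0.26, adjusted p = 0.20), and that of fluoxetine called 0 (0.042%; 0 unadjusted), with Rpl24 closest (0.26, adjusted p = 0.476). Females and males, averaged over genotype and treatment, differed in 0 of 77 genes (0.132%; 2 unadjusted), with Rps6 closest (0.07, adjusted p = 0.482). edgeR and DESeq2 called 0 in these as well.

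Related genes outside the set were read from fixed lists. In HT lithium cortex 6.61% of all genes were lower and 7.46% higher. On a list of 8 other ribosomal protein genes 3 were lower, Rps4l by 0.38, Fau by 0.15 and Rps3a1 by 0.13. Rps4l matched the symbols but had been set aside because it is annotated as a transcribed processed pseudogene. Fau encodes a ubiquitin-like fusion with a small subunit protein. Of 20 other genes whose mRNAs carry a TOP motif or that act in translation, 7 were lower, among them the elongation factors Eef1g (-0.16) and Eef2 (-0.15) and the initiation factor subunit Eif3f (-0.16). Of 32 nucleolar assembly factors 3 were lower and 1 higher, with Fbl, the rRNA methyltransferase fibrillarin, at -0.14, Ncl, nucleolin, at -0.12 and Wdr12 at 0.23. Of 12 genes of RNA polymerase I and its factors 1 was lower, Ubtf, which activates rRNA gene transcription (-0.14, limma adjusted p = 0.000424). The lower counts of the assembly factor and polymerase I lists lay near the share of all genes. Of 20 genes of mTOR and TOP translation control 3 were higher, including Larp4 (0.17) and Rps6kb2, which encodes a kinase of the Rps6 protein (0.16), and 1 was lower, Myc (-0.32), which drives ribosome production. Once the exon length slope was added, 1 of the 8 other ribosomal protein genes and 4 of the 20 translation genes were lower. Of the assembly factors 2 were lower and 2 higher, and 1 polymerase I gene was lower. Of the mTOR and TOP control genes 3 were lower and 1 higher. In that fit 5.15% of all genes were lower, and 849 of 16669 were higher.

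In HT fluoxetine cortex, where 5.96% of all genes were lower and 6.84% higher, 7 of the 32 assembly factors were lower and 0 higher, among them Nop2 (-0.18), Bysl (-0.21) and Nob1 (-0.17), and Ubtf was lower by 0.14. Of the 20 mTOR and TOP control genes 3 were lower, Ddit4, an inhibitor of mTOR complex 1, most by p (-0.39, limma adjusted p = 0.00125), and 1 was higher, Rps6kb2 (0.17). Of the 20 translation genes 1 was lower, Eef2 (-0.11), and 1 higher, the small nucleolar RNA host gene Snhg1 (0.29). In WT fluoxetine cortex 3.41% of all genes were lower and 3.98% higher. There 4 assembly factors were lower, Tsr1 by 0.16, Nop2 by 0.14 and Bysl by 0.14 among them. On the list of 8 other ribosomal protein genes, which includes the pseudogene Rps4l, 2 were lower, including Rpl36al by 0.22. Of the 20 mTOR and TOP control genes 2 were lower there, Ddit4 by 0.40 and the Myc relative Mycn by 0.35, and 2 were higher, Rps6kb2 by 0.16 and Deptor, an inhibitor of mTOR, by 0.23. Among polymerase I factors Ttf1, a termination factor, was higher there by 0.18. In WT lithium cortex 1 assembly factor was lower and no gene of the other lists on translation passed. The exon length slope was also added to the fluoxetine comparisons. In HT cortex 8 assembly factors, 2 polymerase I genes, 3 mTOR and TOP control genes and 1 of the 8 other ribosomal protein genes were then lower (7.56% of all genes). There 1 translation gene and 1 mTOR and TOP control gene were higher. In WT cortex 1 assembly factor and 1 mTOR and TOP control gene were then lower (0.942% of all genes), and 1 mTOR and TOP control gene was higher.

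Other groups of genes with general cell functions were compared. With fluoxetine in HT mice, where 5.96% of all genes were lower, 18 of 80 nuclear oxidative phosphorylation genes were lower and 0 higher, 8 of 78 mitochondrial ribosomal protein genes lower and 1 higher, and 7 of 37 proteasome genes lower and 0 higher. Once the exon length slope was added, these counts were 10 lower and 1 higher, 7 lower and 2 higher, and 5 lower and 1 higher. In that fit 7.56% of all genes were lower. With lithium in HT mice and no slope in the fit the counts were 8 lower and 0 higher, 6 lower and 3 higher, and 4 lower and 0 higher, not far from the 6.61% of all genes that were lower, beside 42 and 0 for the 77 genes. Once the slope was added, they were 1 lower and 8 higher, 2 lower and 6 higher, and 1 lower and 2 higher. In that fit 5.15% of all genes were lower, 849 of 16669 were higher, and 9 of the 77 were lower and 0 higher. In the sex difference of the lithium effect in WT mice 30 oxidative phosphorylation, 11 mitochondrial ribosomal protein and 7 proteasome genes passed, where 1.88% of all genes passed in that direction, beside 58 of the 77. Once the exon length slope was added, 0 genes of each list passed, as did 0 of the 77 and 0% of all genes.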

How the data were processed

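RNA of 58 prefrontal cortex libraries had been prepared with a stranded poly(A) kit, per the labels' protocols. The submitters' processing notes name Salmon 0.11.2, R 3.6.0, DESeq2 1.19.11 and GRCm38; the annotation release is not given in the sources used here. The authors deposited 1 normalised signal per gene and library, and every nonzero value was a whole multiple of 1 step per library (100% within a tolerance of 0.01), as gene counts divided by a size factor would be. Here these signal values are called normalised counts. Symbols, positions and transcript lengths came from GENCODE.

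Values were analysed as log2(value + 1), so differences of low genes are understated. limma 3.58.1 with a variance trend fitted 12 groups of genotype, treatment and sex over all 58 libraries to the 16669 genes with a mean of at least 10; treatment and genotype comparisons averaged the sexes. P values were adjusted by Benjamini and Hochberg's method over those 16669 genes. The design foresaw counts or normalised values, and the test for normalised values applied. edgeR 4.0.16 and DESeq2 1.42.0 were run on whole reads of 54 libraries; in the other 4, all HT (lithium male 3; of the vehicle mice female 2 and males 1 and 5), the step lay too near 1. Copies were found with blastn 2.17.0+. The fits were tested on simulated data. Libraries were not shown to come from separate litters, so p values measure the spread between these libraries. No pair of libraries of the same group held identical values (112 pairs within the 12 groups). Pairs across groups were not checked.

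The genes and lists were chosen with earlier results of these data known. Named genes were up to 8 genes each way of lowest p out of those that passed (3 of lowest p where none passed), genes chosen by role whatever their values, the highest and lowest per kilobase, and up to 3 of each other list. Results of some genes that the rule names are not reported here. The split of lithium by sex was added after seeing the data. Sensitivity to normalisation, filters, pseudocount, covariates, replicate number and single libraries is given at the end.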

Additional observations from a re-analysis of the deposited data

Results flagged for a closer look

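In 10 of 312 groups of libraries searched (51 genes), 1 library stood apart from the rest by Dixon's test, which is 3.21% where chance gives about 1 in 20. Rps27, a gene whose copy Rps27rt had the higher mean count, was far above the other libraries in HT lithium female 4 (269 normalised counts, next 64.6), WT fluoxetine female 5 (257, next 119) and HT vehicle male 2 (104, next 70.3). In HT lithium male 1, Rpl13a was lowest at 3546 (next 4199), Rpl26 at 3160 (next 3455) and Rpl35a at 1502 (next 1763). Rpl36a was highest in HT lithium male 3 (1288, next 1104), Rps6 in HT vehicle female 2 (4258, next 3838), Rpl5 in WT fluoxetine female 3 (1816, next 1572) and Rps28 in WT fluoxetine male 1 (1091, next 888).

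The lithium effect differed between WT females and WT males by limma's test of the difference (8 lithium libraries). On the log2 scale the female minus male difference was 0.71 for Rpl35a, 0.54 for Rps18, 0.56 for Rpl26, 0.58 for Rpl17, 0.79 for Rpl41, 0.71 for Rpl13a, 0.61 for Rps3 and 0.77 for Rps12. The adjusted p ran between 0.000745 and 0.00191 over these genes in limma's fit, and none passed once the exon length slope was in the fit.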

How the results depend on the processing

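None of the genes of lowest p in each comparison, the ones refitted by name, reversed its direction in the settings tried; the other genes named were not followed through them. Genes of the 77 passed as higher in a drug comparison averaged over the sexes in 1 setting, fluoxetine in HT mice with the slope and the olfactory bulb level in the fit (2 higher, 11 lower). With fluoxetine in HT mice the count of 16 lower genes was 8 after quantile normalisation, 10 with the exon length slope added, 1 with edgeR, 3 with DESeq2 and 2 with limma on the same 54 libraries. With fluoxetine in WT mice the count of 7 was 11 at a mean of at least 100, 11 with DESeq2, 2 with only the groups compared in the fit, 0 with the slope, 0 with the slope and the olfactory bulb level, and 14 without WT lithium females 3 and 4, which enter only the shared variance; the cause was not tested. With lithium in HT mice the count of 42 was 9 with the slope, 5 with the slope and the olfactory bulb level, 13 with edgeR, 17 with DESeq2 and 13 with limma on 54 libraries. With lithium in WT mice the count of 2 was 1 after quantile normalisation, 0 with only the groups compared and 0 without lithium females 3 and 4.

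For the sex difference of the lithium effect in WT mice the count of 58 was 0 with only the groups compared, 0 with the slope, 2 with the slope and the olfactory bulb level and 7 without lithium females 3 and 4. In WT females alone the count of 13 was 0 with only the groups compared, 0 without those females and 26 with DESeq2, and in WT males the count of 32 was 1 with the slope and 4 with both covariates. Settings for the sex split, limma on 54 libraries, both covariates together and leaving out females 3 and 4 were chosen after seeing the data. Leaving out 1 library at a time gave 9 to 22 (fluoxetine, HT), 0 to 23 (fluoxetine, WT), 29 to 49 (lithium, HT), 0 to 2 (lithium, WT), 0 to 6 (HT against WT under lithium), 21 to 67 (sex difference), 0 to 43 (WT females) and 16 to 33 (WT males), and 0 in the other genotype, interaction and sex comparisons. Shares of all genes in the fits without 1 library are not reported here, so these counts may move with calls over all genes.

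With the replicate block the drug counts were 15, 5, 40 and 2 in the order above, and the sex counts 56, 8 and 30. Same-numbered libraries mostly did not deviate together (r between -0.28 and 0.37 in 66 pairs, 14 over 0.1, and 12 libraries correlated best with their own number). Deviations from the means of such small groups cannot decide whether the numbers are only names. A fit of only the groups compared gave no separate value for the genotype and sex averages, which use every group. Depth limits Rps27 most, with a mean of 77.6 normalised counts, and counts on near-identical copies limit 14 genes.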
